A study of Mus musculus with 13 samples.

Results

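The genes described here encode elastin (Eln), the fibulins Fbln1, Fbln2, Fbln5, Efemp1 and Efemp2, and the emilins Emilin1 and Emilin2. They were chosen by name as components of the elastic fibre, not by their measured values, although earlier results of these data were known. All 8 were found among the 25655 genes of each expression table, and all 8 passed the filter on low values in every comparison. RNA had been sequenced from 13 untreated primary cultures of dermal fibroblasts of newborn mice, 7 homozygous for the fibrillin-1 mutation Fbn1 G234D (cultures M1 to M7) and 6 WT (W1 to W6). The cultures form 2 sets: set 1 holds M1 to M4 and W1 to W4, and set 2, described as additional cultures, holds M5 to M7, W5 and W6. The labels give neither strain nor sex. The study asked whether the mutation alters matrix gene expression within the fibroblasts themselves.

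Elastic fibres give skin and arteries their recoil. Tropoelastin, the soluble product of Eln, is deposited on a scaffold of fibrillin microfibrils and crosslinked by lysyl oxidases into insoluble elastin. Fibulins and emilins are glycoproteins that lie between these components: Fbln5 and Efemp2 are required for elastic fibre assembly in mice, and Emilin1 sits at the interface of elastin and microfibril.

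The values were TPM, transcript numbers scaled for transcript length and for the total of each library, so levels can be set side by side between genes. Between cultures they are shares of a fixed total, so small differences can depend on the scaling. With another scaling (median of ratios), the genotype differences of Eln, Fbln1, Fbln2 and Emilin1 in set 2 changed sign. The tables carry no read totals, and the depth of each library is unknown. Between 11741 and 12042 genes reached 1 TPM in a culture. All 10 dermal fibroblast markers examined, among them Col1a1 and Pdgfra, were at 1 TPM or more in each of the 13 cultures. The summed endothelial markers reached at most 4.10 TPM in G234D and 3.87 TPM in WT cultures, and the keratinocyte markers at most 8.62 TPM in G234D and 6.59 TPM in WT cultures. Fbn1 itself, the microfibril gene that carries the mutation, averaged 542 ± 50.2 TPM in G234D (SD, n = 4) and 491 ± 42.8 TPM in WT (n = 4) in set 1. In set 2 Fbn1 averaged 452 ± 32.2 TPM in G234D (n = 3) and 405 ± 8.03 TPM in WT (n = 2). A point mutation need not alter the transcript level, so these values do not check the genotype labels.

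Fbln2 was by far the most abundant of the 8 genes. Its product is a matrix glycoprotein that binds fibrillin-1, and its mean level over the 13 cultures was 2155 ± 213 TPM (SD), between ranks 44 and 80 of the 25655 genes. Fbln2 alone made up 61.6% to 76.2% of the summed TPM of the 8 genes in a culture. The mean levels then ran through Fbln5 (355 ± 94.8 TPM), Efemp2 (269 ± 23.7 TPM), Emilin1 (173 TPM), Fbln1 (111 ± 19.1 TPM) and Efemp1 (40.2 ± 11.9 TPM) to Eln (33.6 ± 24.1 TPM) and Emilin2 (30.3 TPM). Neighbours in this order kept it in all 13 cultures except for 3 pairs. Fbln5 exceeded Efemp2 in 10 of 13 cultures, all but M1, M2 and W1. Efemp1 exceeded Eln in 9, which were every culture of set 1 and M6. Eln exceeded Emilin2 in 5, which were the cultures of set 2. The order of the last 2 pairs thus went with the set, and differences between genes were not tested. Fbln5 and Efemp2, the genes of the assembly proteins, were above Eln in every culture.

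**Figure D1:**
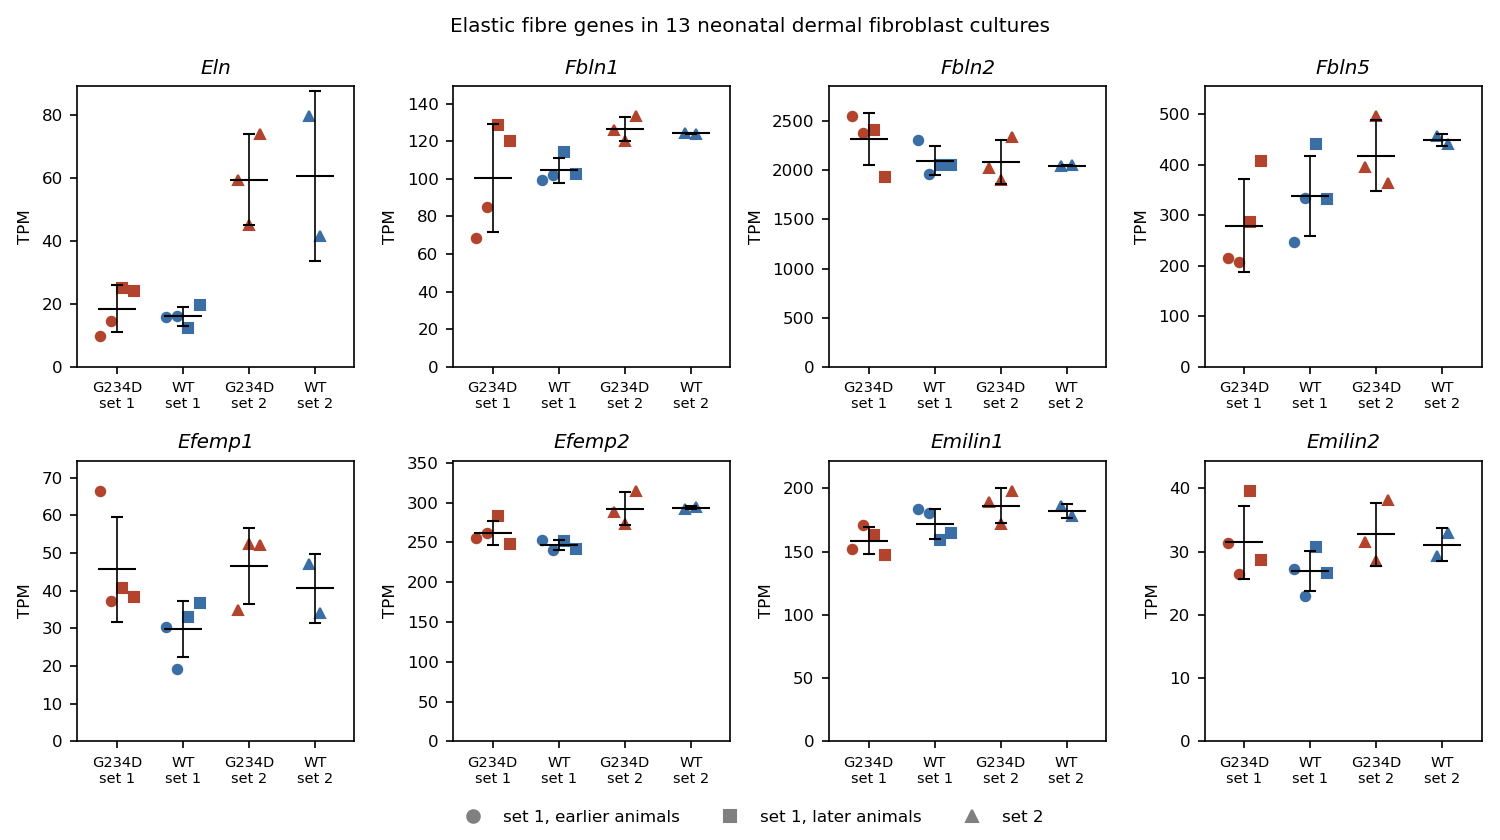
Level of each gene in TPM (vertical axes, from 0) in the 13 cultures, with G234D (red) left of WT (blue) within each set. Points are cultures, circles and squares mark the earlier and later animals of set 1, triangles mark set 2, and bars give the mean ± SD; Eln stood at 41.4 to 79.5 TPM in set 2 against 9.68 to 25.1 TPM in set 1.

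The spread between cultures of the same set and genotype differed widely among the 8. On the log2(TPM + 1) scale, the residual SD was 0.47 for Eln, wider than in 97.2% of the genes tested, 0.37 for Efemp1 and 0.34 for Fbln5. Fbln1 (0.25), Emilin2 (0.20) and Fbln2 (0.14) also exceeded the median of all genes, 0.11. Emilin1 (0.095) and Efemp2 (0.071) were below it. A genotype difference of a given size was therefore hardest to resolve for Eln and easiest for Efemp2.

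On mm10, as annotated in GENCODE M21, Eln spans chr5:134702593-134747323 on the minus strand and Emilin1 chr5:30913402-30921277 on the plus strand. Fbln1 lies at chr15:85205949-85286535, Fbln2 at chr6:91212455-91272540, Efemp1 at chr11:28853204-28926743 and Efemp2 at chr19:5473954-5482517, all on the plus strand. Fbln5 lies at chr12:101746565-101819055 and Emilin2 at chr17:71252172-71311978, both on the minus strand. Efemp2 overlaps Mus81 on the opposite strand, which had 13.9 to 18.7 TPM, and Eln and Emilin2 overlap the opposite-strand transcripts Gm30003 and Gm26561. The library kit keeps strand, but whether the counting used it is not given in the sources used here.

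Promoter sequence is shown for 4 genes on which the comparisons turn: Fbln1, whose genotype difference changed between groups of animals, Fbln2 and Fbln5, which ran opposite to each other across cultures, and Efemp1, with the largest genotype difference over all cultures. Each window is the 250 bases before the 5′-most RefSeq start (GRCm38.p6), read 5′ to 3′ along the gene, at chr15:85205699-85205948 (plus strand, Fbln1), chr6:91212514-91212763 (plus, Fbln2), chr12:101819120-101819369 (minus, Fbln5) and chr11:28852955-28853204 (plus, Efemp1). The RefSeq table matched 7 of the 8 genes, all but Eln. The Fbln2 window lies inside the gene as annotated in GENCODE M21, which starts at 91212455, so by that annotation it is not upstream of the gene. The same holds for the windows of Emilin1 and Emilin2. Capitals mark matches on either strand to the letters searched, which were the TATA element TATAAA, the GC-rich Sp1 element (GC box) GGGCGG, the CCAAT box, the enhancer element (E box) CACGTG, the AP-1 site TGANTCA, the Smad-binding element (Smad box) CAGAC and the nuclear factor I site (NFI site) TTGGC.
Fbln1: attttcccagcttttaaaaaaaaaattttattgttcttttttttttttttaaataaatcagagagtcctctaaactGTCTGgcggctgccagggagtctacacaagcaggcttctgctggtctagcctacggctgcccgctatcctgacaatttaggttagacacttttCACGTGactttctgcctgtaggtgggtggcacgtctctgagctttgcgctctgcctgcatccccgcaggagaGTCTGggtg
Fbln2: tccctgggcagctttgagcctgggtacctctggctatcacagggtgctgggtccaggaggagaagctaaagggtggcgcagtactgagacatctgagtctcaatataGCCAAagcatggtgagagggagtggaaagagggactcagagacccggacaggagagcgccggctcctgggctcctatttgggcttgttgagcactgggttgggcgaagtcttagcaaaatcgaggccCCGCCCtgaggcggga
Fbln5: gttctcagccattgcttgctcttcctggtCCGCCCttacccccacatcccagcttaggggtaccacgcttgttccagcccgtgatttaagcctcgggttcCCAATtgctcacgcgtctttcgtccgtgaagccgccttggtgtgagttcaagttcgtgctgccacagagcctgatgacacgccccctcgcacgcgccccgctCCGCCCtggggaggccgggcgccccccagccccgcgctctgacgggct
Efemp1: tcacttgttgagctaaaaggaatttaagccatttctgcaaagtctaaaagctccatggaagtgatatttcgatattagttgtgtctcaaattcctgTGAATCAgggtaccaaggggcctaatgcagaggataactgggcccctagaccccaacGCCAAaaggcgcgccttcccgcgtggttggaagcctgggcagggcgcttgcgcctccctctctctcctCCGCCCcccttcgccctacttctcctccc

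Fbln1 held an E box, whose first base is 81 bases before the start and which 6.02% of all 32851 RefSeq windows of this length hold, and 2 Smad boxes (42.2% of all windows). Fbln2 held a GC box (32.7% of all windows) beginning 16 bases before the start, and an NFI site (41.5%). Fbln5 was the richest of the 4 in G and C, at 65.2% with 21 CpG, and held 2 GC boxes and a CCAAT box (33.8% of all windows). Fbln2, at 58.8% with 8 CpG, shared the GC box with Fbln5 and no other motif searched. Efemp1 held an AP-1 site (6.75% of all windows), a GC box and an NFI site. TATAAA, present in 12.4% of all windows, was in none of the 7. Over the 7 windows, the GC box and the Smad box each occurred in 4 and the NFI site in 3, while the E box, AP-1 site and CCAAT box occurred in 1 each. These matches describe letters and do not show binding.

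The first comparison asked whether the 8 genes differed between G234D and WT cultures over both sets. None did beyond the spread between cultures. Differences were tested with limma on log2(TPM + 1), with the set as a covariate and Benjamini-Hochberg adjustment over all 11942 genes tested. At an adjusted p under 0.05 the test called 0 of the 8 genes, beside 0 (0%) of all genes. At an unadjusted p under 0.05 it gave 1 of the 8, Efemp1, beside 769 of all genes (6.44%). The log2 difference, G234D minus WT, was positive for 5 of the 8 and negative for 3, beside 6756 positive and 5186 negative over all genes. Its median over the 8 was 0.065, beside 0.011 over all genes.

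Eln had no common direction. Its level was 9.68, 14.6, 25.1 and 24.2 TPM in G234D cultures M1 to M4, against 15.9, 16.0, 12.4 and 19.5 TPM in WT cultures W1 to W4. In set 2 Eln was at 59.3, 45.0 and 73.8 TPM in G234D, against 79.5 and 41.4 TPM in WT. The G234D cultures of set 1 thus lay on both sides of WT, and those of set 2 lay between the WT cultures. The log2 difference over both sets was 0.08 (SE 0.23, 95% interval −0.42 to 0.58, limma adjusted p = 0.976), and 3 of 7 G234D cultures were above the WT mean of their set. Without M1 and M2 it was 0.33 (limma adjusted p = 0.724).

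Efemp1 encodes fibulin-3, a short fibulin bound by the tissue inhibitor TIMP3, and had the largest difference of the 8 over all cultures. Its level was 66.5, 37.3, 40.8 and 38.3 TPM in G234D cultures M1 to M4, against 30.4, 19.3, 32.9 and 36.7 TPM in W1 to W4. All 4 G234D cultures of set 1 were above all 4 WT cultures, although M2, the lowest of them, exceeded W4 by little; groups failed to overlap for 4.15% of all genes in set 1. In set 2 Efemp1 was at 35.0, 52.5 and 52.2 TPM in G234D, against 47.1 and 34.2 TPM in WT, and the groups overlapped. The log2 difference was 0.44 over both sets (SE 0.19, 95% interval 0.031 to 0.85, unadjusted p = 0.0370, limma adjusted p = 0.762). It was 0.59 in set 1 (SE 0.24, limma adjusted p = 0.792) and 0.19 in set 2 (SE 0.24, limma adjusted p = 0.906). In all, 6 of 7 G234D cultures were above the WT mean of their set, and the difference failed the correction in each comparison.

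Fbln5, which binds tropoelastin and cell-surface integrins, leaned the other way. It was at 214, 208, 287 and 407 TPM in G234D cultures M1 to M4, against 248, 333, 441 and 331 TPM in W1 to W4. In set 2 Fbln5 was at 395, 496 and 363 TPM in G234D, against 456 and 440.4 TPM in WT. The lowest values of set 1 were those of M1 and M2, and the groups overlapped in both sets. The log2 difference over both sets was −0.23 (SE 0.17, 95% interval −0.60 to 0.14, limma adjusted p = 0.894), with 2 of 7 G234D cultures above the WT mean of their set. With single cultures left out it lay between −0.34 without M4 and −0.14 without W3, and in set 1, where it was −0.30, between −0.50 without M4 and −0.17 without W3.

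Efemp2 encodes fibulin-4, which brings lysyl oxidase to tropoelastin, and had the smallest residual SD of the 8 within set and genotype. They were 255, 261, 283 and 248 TPM in G234D cultures M1 to M4, against 253, 240.3, 252 and 242 TPM in W1 to W4. In set 2 Efemp2 was at 289, 274 and 315 TPM in G234D, against 292 and 295 TPM in WT. G234D and WT overlapped in both sets. With the replicate number as a block, the Efemp2 difference in set 1 was 0.085 (limma adjusted p = 0.692). The log2 difference over both sets was 0.050 (SE 0.041, limma adjusted p = 0.908), and its 95% interval of −0.038 to 0.14 was the narrowest of the 8.

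Fbln1, a fibulin found in elastic fibres and basement membranes, was at 68.3, 84.9, 129 and 120.1 TPM in G234D cultures M1 to M4, against 99.3, 102, 114 and 102 TPM in W1 to W4. In set 2 Fbln1 was at 126, 120.3 and 133 TPM in G234D, against 125 and 124 TPM in WT. In set 1, M1 and M2 were below every WT culture while M3 and M4 were above every one. The log2 difference over both sets was −0.053 (SE 0.12, limma adjusted p = 0.967). Fbln2 was at 2553, 2378, 2414 and 1932 TPM in M1 to M4, against 2312, 1966, 2058 and 2056 TPM in W1 to W4. In set 2 Fbln2 was at 2021, 1901 and 2337 TPM in G234D, against 2042 and 2052 TPM in WT. Its highest values were in G234D cultures of set 1, and the groups overlapped. The log2 difference of Fbln2 over both sets was 0.095 (SE 0.070, limma adjusted p = 0.894).

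Emilin1, which also holds back the processing of the TGF-beta precursor in mice, was at 152, 171, 163 and 147 TPM in G234D cultures M1 to M4, against 184, 181, 159 and 164 TPM in W1 to W4. In set 2 Emilin1 was at 189, 172 and 198 TPM in G234D, against 186 and 178 TPM in WT. The log2 difference over both sets was −0.062 (SE 0.052, limma adjusted p = 0.915). Emilin2, its less abundant relative here, was at 31.3, 26.5, 39.6 and 28.6 TPM in M1 to M4, against 27.2, 23.0, 30.7 and 26.7 TPM in W1 to W4. In set 2 Emilin2 was at 31.5, 28.5 and 38.1 TPM in G234D, against 29.3 and 32.9 TPM in WT. The log2 difference of Emilin2 was 0.16 (SE 0.097, limma adjusted p = 0.885). For both emilins, G234D and WT overlapped in each set. With the replicate number as a block, the Emilin2 difference in set 1 was 0.21 (unadjusted p = 0.00852, limma adjusted p = 0.540), against an unadjusted p of 0.128 without the block. Whether this number pairs the cultures is not known.

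Within the sets the outcome was the same. Of the 8 genes, limma called 0 in set 1, beside 0 of 11905 genes (0%), and 0 in set 2, beside 1 of 12060 genes (0.00829%). Unadjusted p values under 0.05 were found for 1 of the 8 genes and 721 of all genes (6.06%) in set 1, and for 0 of the 8 and 781 of all genes (6.48%) in set 2. With the replicate number of the labels as a block, 1 gene was called in set 1 and 21 in set 2, none of them among the 8. In set 2 that block also takes M7, which has no WT culture of its number, out of the comparison; without M7 and with no block, 2 genes were called. The difference between the sets was tested as an interaction of set and genotype, which called 0 of the 8 genes and 0 of all genes (0%), with 691 of all genes (5.79%) at an unadjusted p under 0.05. The limma adjusted p of the 8 ran between 0.912 and 0.991 there.

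**Figure D2:**
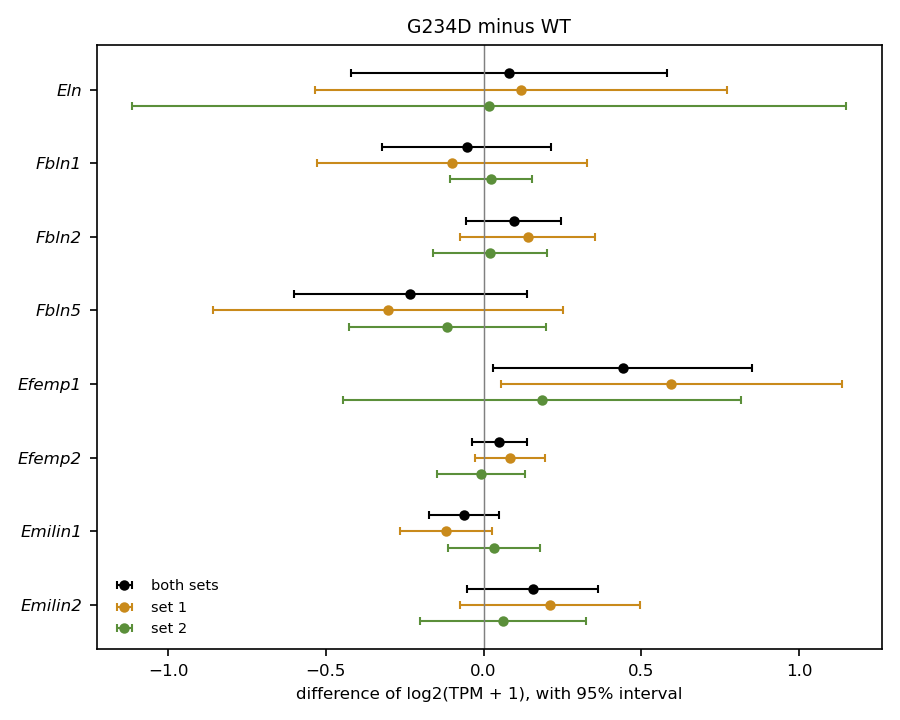
Genotype difference of each gene, G234D minus WT, in log2(TPM + 1) with its 95% interval, over both sets (black, 7 against 6 cultures), in set 1 (orange, 4 against 4) and in set 2 (green, 3 against 2). The Efemp1 intervals over both sets and in set 1 lie above 0 before correction for the genes tested, and all others span 0.

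The sample titles carry numbers, taken here as animal numbers, and by them set 1 was divided into groups. M1, M2, W1 and W2 have the lower numbers (here the earlier animals), and M3, M4, W3 and W4 the higher ones (the later animals). The number of W1 lies farther from those of M1, M2 and W2 than these lie from the later ones. The division is thus a choice, and the numbers alone would sooner set W1 apart. The labels do not say what these numbers mean. The genotype difference of Fbln1 was of opposite sign in these groups. In the earlier animals it was −0.40 (SE 0.089, limma adjusted p = 0.0217), with 68.3 and 84.9 TPM in G234D against 99.3 and 102 TPM in WT. In the later animals it was 0.20 (SE 0.089, limma adjusted p = 0.398), with 129 and 120.1 TPM in G234D against 114 and 102 TPM in WT. The difference between these differences was 0.59 (SE 0.13, limma adjusted p = 0.0218). These calls, added after the values had been seen, came from 1 fit over all 13 cultures with 2 or 3 cultures a group. Fbln1 was 1 of 668 genes called in the earlier animals (5.59%, with 2.29% lower), and 1 of 524 genes whose difference changed between the groups (4.39%, with 1.66% higher); 0 of the 8 and 64 of all genes (0.536%) were called in the later animals. The call in the earlier animals was lost without M1 (−0.24, adjusted p = 0.253), W1 (adjusted p = 0.0929) or W2 (adjusted p = 0.146). The change between the groups was lost without M1 (0.44, adjusted p = 0.0753), W1 (adjusted p = 0.0638), W2 (adjusted p = 0.0803), M3 (adjusted p = 0.0515) or W4 (adjusted p = 0.0880).

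None of the other 7 genes was called within a group of animals or for its change between the groups. Eln differed by −0.39 in the earlier animals (SE 0.35, limma adjusted p = 0.583) and by 0.63 in the later animals (SE 0.35, limma adjusted p = 0.523). Both earlier G234D cultures were below the WT mean of Eln and both later ones were above it, but the change of 1.02 (SE 0.50, limma adjusted p = 0.299) was not beyond the spread. Efemp1 differed by 1.01 in the earlier animals (SE 0.32, limma adjusted p = 0.113), by 0.18 in the later animals and by 0.19 in set 2. Leaving out single cultures moved the earlier difference of Efemp1 between 0.60 without M1 (limma adjusted p = 0.551) and 1.42 without M2, where it was called (limma adjusted p = 0.0483) with M1, the highest Efemp1 culture, as the remaining G234D culture of the group. Fbln5 was lower in G234D than in WT in all 3 groups, at −0.44, −0.16 and −0.11, none of them called.

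**Figure D3:**
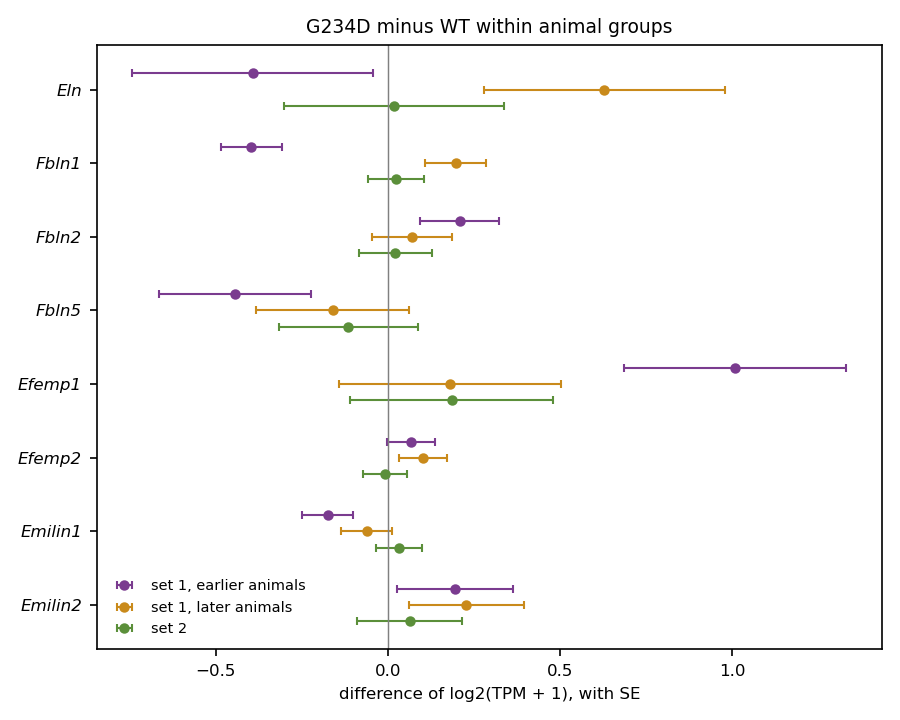
Genotype difference of each gene, G234D minus WT, in log2(TPM + 1) with its SE, in the earlier animals of set 1 (purple, 2 against 2 cultures), the later animals of set 1 (orange, 2 against 2) and set 2 (green, 3 against 2). Fbln1 and Eln lie below 0 in the earlier and above 0 in the later animals, and Efemp1 is farthest from 0 in the earlier animals.

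Markers of other cell types moved with genotype in the earlier animals. The 9 Schwann cell and melanocyte markers summed to 127 to 130.1 TPM in M1 and M2, against 22.4 to 24.1 TPM in W1 and W2. They summed to 35.1 to 46.1 TPM in G234D against at most 29.9 TPM in WT in the later animals, and to 24.6 to 30.3 TPM in G234D against 22.7 to 25.4 TPM in WT in set 2. In the earlier animals the 10 skeletal muscle markers summed to 345 to 451 TPM in G234D against 137 to 166 TPM in WT, and the 10 macrophage markers to 60.6 to 84.9 TPM in G234D against 16.4 to 37.9 TPM in WT. In the later animals the muscle markers summed to 70.5 to 112 TPM in G234D against 128 to 173 TPM in WT, and the macrophage markers to 19.8 to 21.3 TPM in G234D against 15.5 to 19.1 TPM in WT. In set 2 the muscle markers summed to 104 to 149 TPM in G234D against 94.2 to 109 TPM in WT. The macrophage markers there summed to 47.5 to 69.7 TPM in G234D against 39.1 to 43.5 TPM in WT. The macrophage sums were thus higher in G234D in all 3 groups, but groups this small can separate by chance, and this was not tested. In set 1 undivided they overlapped, at 19.8 to 84.9 TPM in G234D against 15.5 to 37.9 TPM in WT. At 1 TPM or more in both M1 and M2 were 6 of 9 Schwann and melanocyte, 9 of 10 muscle and 9 of 10 macrophage markers; Dct was at 0 in M1 and Ckm in W2. The dermal fibroblast markers, whose sum is weighted to abundant genes such as Col1a1, summed to 23321 to 25627 TPM in M1 and M2, against 28375 to 29263 TPM in W1 and W2. The part of these cells in the values of the 8 genes was not tested, and in bulk RNA fewer cells of a type and less RNA per cell cannot be told apart.

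Without M1 and M2, the Fbln1 difference over both sets was 0.14 and that of set 1 was 0.25, opposite in sign to the values with them. The Fbln5 difference without them was −0.031 over both sets, of unchanged sign, and 0.045 in set 1, of opposite sign. The Eln difference was 0.33 over both sets and 0.61 in set 1 without them (unadjusted p = 0.00344, limma adjusted p = 0.138). These were the largest of the 8 genes in both, beside 0.31 and 0.43 for Efemp1. None of these genes was called with or without M1 and M2. Without them, the G234D cultures of set 1 were M3 and M4, both of later animals, while the WT cultures came from earlier and later animals. Genotype and group of animals were thus unbalanced in these fits. Within the later animals alone, the difference was 0.63 for Eln (SE 0.35, limma adjusted p = 0.523), 0.20 for Fbln1 and −0.16 for Fbln5.

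The sets differed more than the genotypes. At equal genotype, 4 of the 8 genes were higher in set 2 than in set 1 (limma adjusted p under 0.05), beside 4692 of all genes (39.3%) called, 2094 (17.5%) higher and 2598 (21.8%) lower. Eln was the largest of them, with a mean of 59.8 ± 16.9 TPM in set 2 (SD, n = 5) and 17.2 ± 5.42 TPM in set 1 (n = 8). Its log2 difference was 1.75 (SE 0.24, adjusted p = 0.00021), or 3.36-fold on this scale, and the 5 cultures of set 2 did not overlap the 8 of set 1, as for 17.2% of all genes. Efemp2 averaged 293 ± 14.8 TPM in set 2 and 254 ± 13.5 TPM in set 1, a log2 difference of 0.20 (SE 0.042, adjusted p = 0.00234). Emilin1 averaged 185 ± 10.3 TPM in set 2 and 165 ± 12.8 TPM in set 1, a log2 difference of 0.17 (SE 0.053, adjusted p = 0.0240). Fbln5 averaged 430.0 ± 52.3 TPM in set 2 and 309 ± 85.8 TPM in set 1, a log2 difference of 0.54 (SE 0.17, adjusted p = 0.0269).

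The Fbln5 call was lost without M1 and M2 (0.36, adjusted p = 0.0949), and also without M1 (adjusted p = 0.0512), M2 (0.0503), M6 (0.0682) or W5 (0.0517) alone. The Emilin1 call was lost without M5 (adjusted p = 0.0615) or M7 (0.0664). Fbln1 was just outside the threshold at a log2 difference of 0.32 (adjusted p = 0.0616) and was called without M3 (adjusted p = 0.0183) or M4 (0.0329) and with median-of-ratios scaling (0.0485). Efemp1 (0.22), Emilin2 (0.12) and Fbln2 (−0.099) were not called. Fbn1 was lower in set 2, at a log2 difference of −0.27 (adjusted p = 0.00321). The dermal fibroblast markers also moved with the set, summing to 31020.1 to 34522 TPM in set 2 against 23321 to 29389.7 TPM in set 1. Col1a1, 1 of these markers, alone averaged 13505 TPM in set 2 and 11302 TPM in set 1. It was itself called higher in set 2 (log2 difference 0.27, limma adjusted p = 0.0106). The sums are thus weighted to Col1a1 and do not show a shift of all 10 markers. The part of these markers in the differences between the sets was not tested. The set and any handling that differed between the sets cannot be told apart.

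Between the animals of set 1, later minus earlier at equal genotype, limma called 0 of the 8 genes, beside 850 of 11905 genes (7.14%). Fbln5 differed by 0.55 (SE 0.15, adjusted p = 0.0730), and was called without W2 (adjusted p = 0.0409) or W4 (0.0437). Fbln1 differed by 0.40 (SE 0.13, adjusted p = 0.0974), with the later cultures at 102 to 129 TPM and the earlier ones at 68.3 to 102 TPM. These groups met near 102 TPM without overlapping, as for 15.5% of all genes. Eln differed by 0.48 (adjusted p = 0.264) and the remaining 5 genes by −0.12 to 0.20. The smooth muscle and pericyte markers summed to 4592 to 5649 TPM in the later animals, against 6562 to 7308 TPM in the earlier ones, and their part was not tested.

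**Figure D4:**
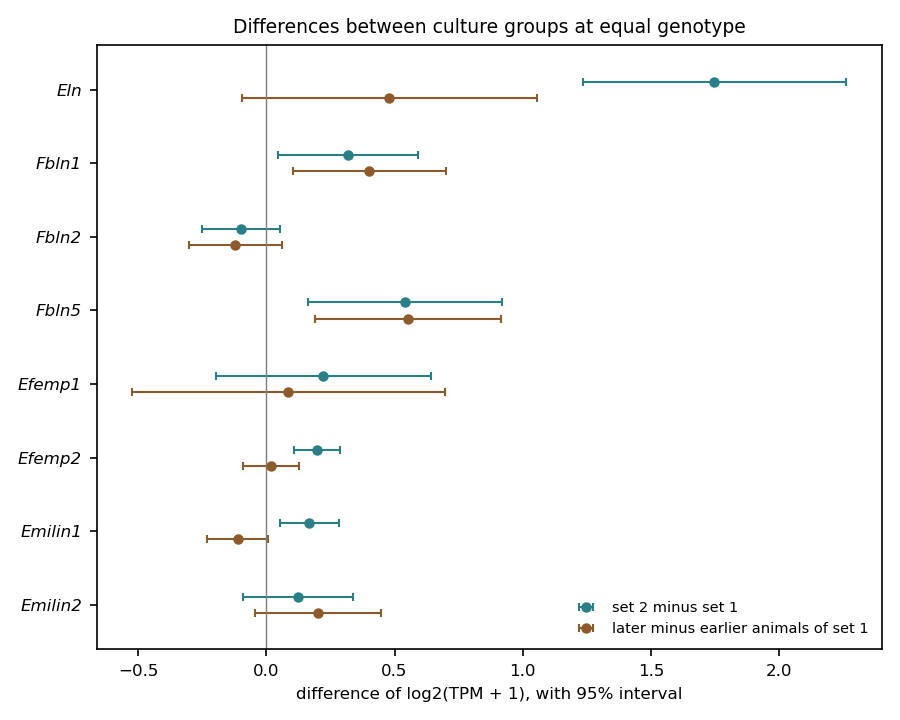
Difference of each gene at equal genotype in log2(TPM + 1) with its 95% interval, for set 2 minus set 1 (teal, 5 against 8 cultures) and for later minus earlier animals of set 1 (brown, 4 against 4). Eln stands apart at 1.75 between the sets, and Fbln1 and Fbln5 are near 0.3 to 0.6 in both comparisons.

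Levels were then compared across the 13 cultures after the mean of each set had been subtracted, for all 28 pairs of the 8 genes, with 100000 permutations within sets and Benjamini-Hochberg adjustment over the 28. Fbln2 and Fbln5 ran opposite to each other, with Pearson's r = −0.84 (permutation p = 0.00158, adjusted p = 0.0221) and Spearman's rho = −0.84 (permutation p = 0.00281, adjusted p = 0.0393). The Pearson r was −0.79 without M7 and M1, the cultures farthest from the median of Fbln2, −0.85 in the 8 cultures of set 1 alone, and −0.87 with each group of animals centred on its own mean. Culture M6, for example, had the lowest Fbln2 and the highest Fbln5 of all, at 1901 and 496 TPM. Fbln2 and Efemp2 ran together, with r = 0.76 (permutation p = 0.00261, adjusted p = 0.0244) and rho = 0.87 (permutation p = 0.00021, adjusted p = 0.00588), and r was 0.82 without M7 and M1. Efemp2 and Emilin2 had r = 0.85 (permutation p = 0.00132, adjusted p = 0.0221), but rho = 0.65 (adjusted p = 0.144), and r was 0.54 without M7 and M3, so this relation rests in part on those cultures. Eln and Fbln1 had r = 0.69 (permutation p = 0.0087, adjusted p = 0.0609), which was 0.36 without M3 and M1. Because TPM sum to a fixed total in each culture, values of abundant genes within a culture are not fully independent.

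**Figure D5:**
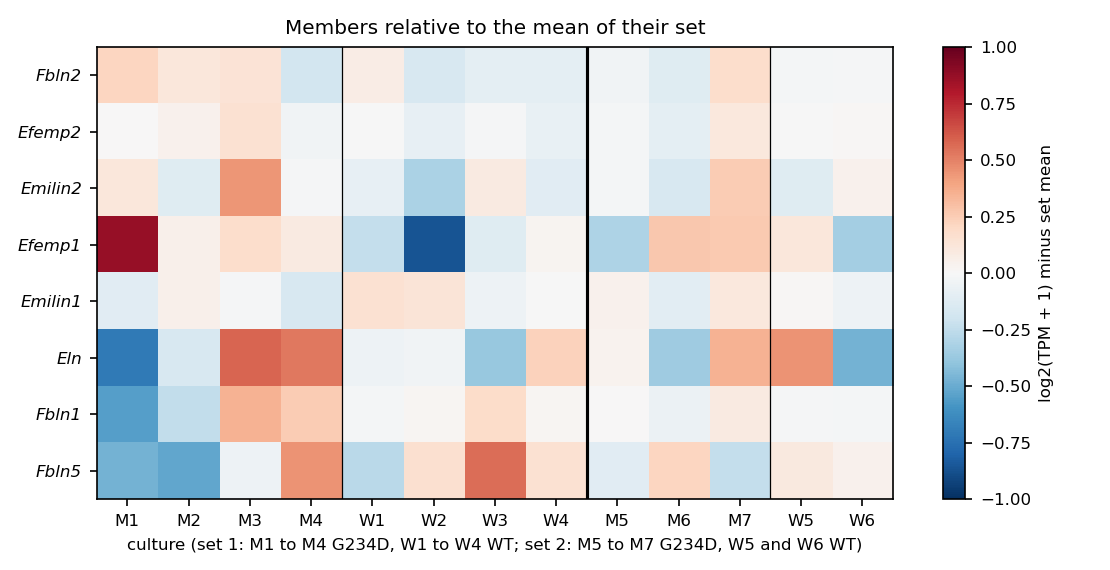
Heat map of the 8 genes (rows) in the 13 cultures (columns), as log2(TPM + 1) minus the mean of the set, with red above and blue below that mean. Fbln2 and Fbln5, in the top and bottom rows, have opposite colours in most cultures, and Efemp1 in M1 and W2 is farthest from its set mean.

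The genes most like each of the 8 across cultures were read from 8321 tested genes with a mean of at least 10 TPM, by Pearson's r of the set-centred values, as a description. Nearest to Fbln2 were Mmp2 (0.96), which encodes a gelatinase that also cleaves elastin, F3 (0.96), the coagulation tissue factor, and Vasn (0.96). Nearest to Fbln5 were Galnt10 (0.97), a glycosyltransferase, Ccdc80 (0.97), a matrix protein, and Tbxa2r (0.96), the thromboxane receptor. Nearest to Fbln1 were Lsm14a (0.97), Egfl6 (0.96) and Olfml3 (0.96), the last pair encoding secreted proteins. Eln was most like Zswim7 (0.93), Zfp777 (0.89) and Ift122 (0.88), and Emilin1 most like Cenpe (0.93), Myh10 (0.93) and Spsb1 (0.91). Efemp2 was nearest to Serpinf1 (0.89), Tedc2 (0.88) and Sfrp1 (0.88). Emilin2 was nearest to Fos (0.89), the immediate-early transcription factor, Il3ra (0.87) and Efemp2 (0.85). Efemp1 was nearest to Ino80c (0.88), Pdpn (0.88, with rho = 0.56) and Dennd10 (0.88).

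Elastic fibre partners were examined in 8 lists with 63 genes, of which 58 were tested; Fbln7, Hmcn2, Emilin3, Mmrn1 and Mmrn2 were under 1 TPM in every culture. Over both sets 32 were higher and 26 lower in G234D by the sign of the difference alone, beside 6756 higher and 5186 lower of all 11942 genes. Of the 58, 8 had an unadjusted p under 0.05, beside 6.44% of all genes, and limma called 0. In order of rising p these 8 were Pmepa1, Furin, Itgb5, Fbn1, Slc2a10, Mfap3, Timp3 and Ltbp3. The median log2 difference of the 58 was 0.012, beside 0.011 over all genes. Values given below are log2 differences, G234D minus WT, over both sets.

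Of the 6 microfibril genes, 3 were higher and 3 lower, with Fbn1 at 0.15, Mfap3 at 0.12, Mfap5 at 0.20 and Mfap4 at −0.064. The 4 latent TGF-beta binding proteins, which anchor TGF-beta to microfibrils, had Ltbp3 at 0.15, Ltbp2 at 0.059, Ltbp4 at 0.021 and Ltbp1 at −0.12. Ltbp1 differed by −0.45 in set 1 and by 0.44 in set 2, and the interaction of 0.89 (unadjusted p = 0.00134, limma adjusted p = 0.545) failed the correction. Of the 9 crosslinking genes, 3 were higher and 6 lower and none had an unadjusted p under 0.05. The lysyl oxidases Lox (0.083), Loxl3 (−0.23) and Loxl4 (−0.14) and the copper pump Atp7a (0.12) had the smallest p values there. Of the 12 breakdown genes, 10 were higher and 2 lower, 1 of them (Timp3, 0.31, a metalloproteinase inhibitor) at an unadjusted p under 0.05. Because the list holds this inhibitor beside proteases, the count does not give a direction of breakdown. The elastases Mmp12 (0.78) and Ctss (0.63), both typical of macrophages, had wide errors (SE 0.48 and 0.40), and the part of the macrophage markers of M1 and M2 in them was not tested.

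Of the 8 receptor genes and partners, 3 were higher and 5 lower. Furin, the protease whose processing of the TGF-beta precursor Emilin1 blocks, differed by −0.12 (unadjusted p = 0.00713, limma adjusted p = 0.742), Itgb5 by −0.092, Itgb3 by −0.18 and Itga4, a chain of the emilin-1 receptor, by 0.16. Itgb3 differed by −0.42 in set 1 and by 0.22 in set 2 (interaction 0.64, unadjusted p = 0.00142, limma adjusted p = 0.545). Of these 8 genes, Furin included, 0 were higher and 8 lower in set 1, where 5929 of all 11905 genes were higher. In set 2, 6 were higher and 2 lower, where 7527 of all 12060 genes were higher. Limma called 0 of their interactions. Of the 9 elastin secretion and cutis laxa genes, 8 were higher and 1 lower, with the glucose transporter family member Slc2a10 at 0.16 (unadjusted p = 0.0243, limma adjusted p = 0.742). Of the 10 TGF-beta response genes, 3 were higher and 7 lower. Pmepa1, a feedback inhibitor, was at −0.13 (unadjusted p = 0.000922, limma adjusted p = 0.696), the smallest p of the partners tested. It was at −0.12 in set 1 and −0.16 in set 2. Skil was at −0.063, Col1a1 at −0.087 and Tagln at −0.097. Hmcn1, the tested relative of the fibulins, was at −0.023.

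The partners also differed between the sets, where 25 of 58 (43.1%) were called, 14 of them higher and 11 lower in set 2, a share near the 39.3% of all genes. Among the microfibril genes, Mfap4 (0.60, limma adjusted p = 0.00581) was higher in set 2, like Eln, while Fbn1 was lower. Ltbp3 (0.44) and Ltbp4 (0.25) were higher and Ltbp1 (−0.68) lower, and Loxl3 (−0.47) and Atp7a (−0.44) were lower, all called. Between later and earlier animals of set 1, 11 of 58 (19.0%) were called, beside 7.14% of all genes, 1 higher and 10 lower, among them Timp3 (−0.51, adjusted p = 0.0252), Mmp12 (−1.81, adjusted p = 0.0266) and Ctss (−1.42, adjusted p = 0.0381). The macrophage markers summed to 15.5 to 21.3 TPM in the later against 16.4 to 84.9 TPM in the earlier animals, and their part in these differences was not tested.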

How the data were processed

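RNA of 13 fibroblast cultures was analysed; per the labels' protocols it was extracted with the RNeasy Plus Mini kit and made into stranded libraries with the NEBNext Ultra II Directional kit. The values deposited by the authors are TPM, per the file headers, and sum to 1000000 in each culture over the same 25655 genes. The submitters' processing notes name mm10; aligner, counter and annotation: not given in the sources used here. Of the gene identifiers, 25600 matched GENCODE M21. Depth is unknown, so no counting interval is given. The tables hold TPM rather than counts, so limma 3.58.1 (R 4.3.3, mean-variance trend, robust) was used on log2(TPM + 1), as provided for in the design; a fold on this scale understates changes of low genes.

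A gene entered a test if 6 cultures (both sets, interaction, set difference), 4 (set 1, animal groups of set 1) or 2 (set 2) had 1 TPM or more of it. Benjamini-Hochberg adjustment ran over every gene in the test, with calls under 0.05. P-values measure the spread between cultures. The 8 genes, the partner and marker lists and the division of set 1 by animal number were chosen with earlier results of these data known. Named genes were the 8, Fbn1, up to 4 genes of each partner list with the smallest p over both sets, and the 3 genes most like each of the 8. The limma steps were tested on simulated data.

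Replicate numbers come from the genotype labels. Deviations from the group means of same-numbered cultures correlated at 0.314, 0.236, 0.244 and 0.214 in set 1, and at −0.155 and 0.0138 in set 2. Same-numbered cultures of set 1 also share a group of animals, and differently numbered ones were not compared. These correlations therefore cannot show whether the number pairs the cultures, and it was used as a block in the alternatives only. Alternatives tried were other pseudocounts, filters and scalings, the replicate or animal group as a block, and cultures left out. Promoter sequences are from RefSeq, GRCm38.p6. Python 3.11.15 with scipy 1.17.1 was used for permutation tests.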

Additional observations from a re-analysis of the deposited data

Results flagged for a closer look

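Efemp1 in G234D culture M1, at 66.5 TPM, stood far above the other G234D cultures of set 1, which had 37.3, 40.8 and 38.3 TPM. Of 16 groups of 4 cultures examined over the 8 genes, this was the 1 with a culture standing apart by Dixon's criterion, which chance gives in about 1 of 20 groups.

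The genotype difference of Fbln1 was higher by 0.59 on the log2 scale in the later than in the earlier animals of set 1 (limma adjusted p = 0.0218), and every G234D culture was above the WT mean in the later and below it in the earlier animals. The same opposition of every culture was seen for Eln, where the change was 1.02 and was not called (limma adjusted p = 0.299). In groups this small such opposition can arise by chance. Its share among all genes is not given, so it adds no weight for either gene. Genes called for a change between the groups were 4.39% of all genes, and the call of Fbln1 depended on single cultures.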

How the results depend on the processing

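No member was called for genotype over both sets, in set 1, in set 2 or for the interaction under any of the alternatives tried, and over both sets 171 of 176 recomputed differences of the 8 genes kept their direction, with Efemp1 between 0.31 and 0.54. Small differences changed sign, and their causes were not tested. Leaving out M1 and M2 also leaves set 1 with G234D cultures of later animals against WT cultures of earlier and later animals. Without M1 and M2, Fbln1 was 0.14 over both sets, 0.25 in set 1 and −0.23 for the interaction, Fbln5 was −0.031 over both sets, 0.045 in set 1 and −0.16 for the interaction, Eln was 0.33 over both sets, 0.61 in set 1 and −0.59 for the interaction, and 23 genes were called in set 1 and 16 for the interaction. With the replicate block, 1 gene was called in set 1 and 21 in set 2, and in set 2 Eln was −0.15, Fbln1 −0.015, Fbln2 −0.063, Emilin1 −0.013 and Emilin2 −0.050. These set 2 differences equal those without M7, which is alone under its number and drops out under the block; without M7 and no block, 2 genes were called. The block changed no call of a member. With animal groups as a block, 1 gene was called in set 1 and 1 for the interaction. In set 2, 0 genes were called with a pseudocount of 5, without a filter or with a filter at 10 TPM, and with median-of-ratios scaling Eln was −0.014, Fbln1 −0.0085, Fbln2 −0.011 and Emilin1 −0.00034. Without a filter, 269 genes were called between animal groups and 35 for genotype in the later animals.

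With each culture left out in turn, genes called ranged from 0 to 2 in set 1, 0 to 14 in set 2, 0 to 1 for the interaction, 3752 to 5157 between sets (3 to 5 members), 36 to 883 between animal groups (0 to 1 members), 132 to 796 in the earlier animals (0 to 2 members), 8 to 65 in the later animals, and 131 to 558 for later minus earlier (0 to 1 members). Over both sets the ranges were −0.035 to 0.23 for Eln and −0.13 to 0.050 for Fbln1, and in set 1 −0.055 to 0.37 for Eln and −0.23 to 0.068 for Fbln1. In set 2 they were −0.44 to 0.48 for Eln, −0.015 to 0.060 for Fbln1, −0.063 to 0.086 for Fbln2, −0.041 to 0.41 for Efemp1, −0.062 to 0.039 for Efemp2, −0.013 to 0.090 for Emilin1 and −0.050 to 0.15 for Emilin2. For the interaction they were −0.56 to 0.36 for Eln and −0.044 to 0.26 for Fbln1. Between animal groups they were −0.12 to 0.33 for Efemp1 and −0.024 to 0.052 for Efemp2. In the later animals they were −0.090 to 0.23 for Fbln2, −0.41 to 0.090 for Fbln5 and −0.14 to 0.014 for Emilin1, and for later minus earlier −0.30 to 0.022 for Fbln2, −0.059 to 0.13 for Efemp2 and −0.19 to 0.26 for Emilin2. With a group of 2 reduced to 1 culture, that culture was assumed to vary like the others. The number of cultures and the unknown depth limit what could be detected.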
